A study of Mus musculus with 12 samples.

Results

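Activity-regulated immediate early genes were examined as a fixed list of 38 genes in mouse prefrontal cortex and hippocampus. All 38 had at least 1 probe set that the platform annotation assigns to them alone, 74 probe sets in total, out of 18193 genes and 45037 probe sets measured. Each gene is represented below by its brightest probe set (highest mean over the 12 arrays), and the other 36 probe sets were used to check it. The study compared 2 genotypes of female mice on a C57BL/6 background, back-crossed for 6 generations and aged 38 to 40 weeks. APLP2-KO mice lack the gene for APLP2, which belongs to the same protein family as the amyloid precursor APP. APPsα-DM mice also lack APLP2 and carry on both App alleles a version that leaves only the secreted ectodomain APPsα. APLP2 is thus absent from every sample, so no group is a wild type. Each of the 4 groups (2 tissues in 2 genotypes) has 3 arrays, from 3 mice of a genotype according to the design text. Per the labels' protocols the mice were killed by cervical dislocation and the tissues were dissected from brains kept cold in a preservative. The sources used here do not give the time of day or what the animals did beforehand.

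Immediate early genes are transcribed within minutes of calcium entry or growth factor signals, from factors such as CREB, SRF and MEF2 that are already present in the cell. Many encode transcription factors that switch on later genes. Others act at synapses or feed back on the kinases that induced them. In cortex and hippocampus their RNA is short-lived and is widely used as a record of recent neuronal activity, so its level depends on the state of the animal shortly before death.

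Values are RMA log2 signals, so that 1 unit is a 2-fold change of signal, and they ranged over all probe sets from 1.80 to 14.36 with array medians of 5.86 to 5.91. App, the edited gene, separated the genotypes: its brightest probe set read 13.38 to 13.50 on the 6 APLP2-KO arrays and 11.46 to 11.83 on the 6 APPsα-DM arrays. The tissue labels were matched too, with 12 of 14 markers of hippocampal neurons higher in hippocampus in APLP2-KO and 11 of 14 in APPsα-DM. Of 12 markers of cortical projection neurons, 8 were called lower and 2 higher in hippocampus in APLP2-KO, and 7 and 1 in APPsα-DM (limma, adjusted p under 0.05). Markers of striatum were lower in hippocampus in 12 of 12 cases in both genotypes, with medians of -2.08 in APLP2-KO and -2.27 in APPsα-DM. They do not test the cortex label, and whether the cortex pieces held striatal tissue was not tested. Markers of choroid plexus, the tissue that secretes cerebrospinal fluid, varied widely within groups: Ttr, its most abundant transcript, read 14.03 on APLP2-KO cortex 3 and 14.18 on APPsα-DM cortex 2, against 8.20 to 9.42 on the other cortex arrays. In hippocampus Ttr ran from 10.63 in APLP2-KO 1 to 14.36 in APPsα-DM 3.

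The promoters of 7 members that differ in how closely they moved with the rest of the list are shown as examples. Sequences are from RefSeq on build GRCm38.p6, cover the 250 bases before the annotated transcription start, and run 5′ to 3′ on the strand of the gene. Capitals mark the full cAMP response element TGACGTCA, its core TGACG (read on either strand, so also as CGTCA), and the CArG box to which SRF binds. The full element contains the core on both strands. The first 6 follow the common pattern of the list closely and Jun does so less.
Fos, chr12:85473640-85473889, plus strand: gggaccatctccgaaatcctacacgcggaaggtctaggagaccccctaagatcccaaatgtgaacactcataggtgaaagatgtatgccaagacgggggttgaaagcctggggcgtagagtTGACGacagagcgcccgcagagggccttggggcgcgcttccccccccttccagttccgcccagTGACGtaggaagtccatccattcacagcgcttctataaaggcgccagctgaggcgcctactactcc
Nr4a1, chr15:101266596-101266845, plus strand: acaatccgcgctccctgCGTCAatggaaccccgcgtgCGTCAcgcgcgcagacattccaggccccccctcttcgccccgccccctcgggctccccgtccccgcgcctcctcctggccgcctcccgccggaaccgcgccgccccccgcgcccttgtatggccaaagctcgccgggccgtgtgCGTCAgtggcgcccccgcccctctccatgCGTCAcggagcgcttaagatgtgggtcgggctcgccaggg
Dusp1, chr17:26508473-26508722, minus strand: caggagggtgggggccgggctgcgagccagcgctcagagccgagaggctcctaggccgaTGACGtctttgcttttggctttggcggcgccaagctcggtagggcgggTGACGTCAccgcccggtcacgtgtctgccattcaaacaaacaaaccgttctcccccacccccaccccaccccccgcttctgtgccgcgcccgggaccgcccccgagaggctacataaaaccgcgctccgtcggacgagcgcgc
Btg2, chr1:134079156-134079405, minus strand: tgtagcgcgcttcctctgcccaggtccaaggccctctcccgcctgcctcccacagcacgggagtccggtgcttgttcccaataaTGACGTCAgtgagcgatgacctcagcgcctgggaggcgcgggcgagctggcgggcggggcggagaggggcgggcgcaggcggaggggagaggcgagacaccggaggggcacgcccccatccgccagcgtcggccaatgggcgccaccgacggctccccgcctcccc
Dusp5, chr19:53528895-53529144, plus strand: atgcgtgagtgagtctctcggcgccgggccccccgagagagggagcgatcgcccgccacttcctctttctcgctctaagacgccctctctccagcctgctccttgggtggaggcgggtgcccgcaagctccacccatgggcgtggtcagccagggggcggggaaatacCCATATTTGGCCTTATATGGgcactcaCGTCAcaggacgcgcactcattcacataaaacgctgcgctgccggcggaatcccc
Junb, chr8:84978749-84978998, minus strand: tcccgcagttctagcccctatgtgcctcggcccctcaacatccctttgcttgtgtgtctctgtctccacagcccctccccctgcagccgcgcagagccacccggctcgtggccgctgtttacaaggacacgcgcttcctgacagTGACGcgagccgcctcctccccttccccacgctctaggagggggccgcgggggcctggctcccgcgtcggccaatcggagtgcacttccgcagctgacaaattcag
Jun, chr4:95052223-95052472, minus strand: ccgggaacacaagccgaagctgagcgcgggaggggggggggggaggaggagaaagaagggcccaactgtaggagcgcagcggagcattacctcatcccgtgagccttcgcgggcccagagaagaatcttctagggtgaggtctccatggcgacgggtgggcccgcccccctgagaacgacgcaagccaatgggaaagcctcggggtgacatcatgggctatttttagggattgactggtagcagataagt

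Fos has the TGACG core at 2 places in this window, Nr4a1 at 4 and Junb at 1. Dusp1 and Btg2 hold the full element, and Dusp5 holds 2 adjacent CArG boxes and 1 core. No marked motif occurs in the window of Jun. Promoter windows from 250 bases before to 50 after the start were matched for 28 of the 38 members, and 20 of the 28 held TGACG, against 23.0% of all 27025 genes with a window. The full TGACGTCA was found in 3 members (Btg2, Dusp1 and Maff), against 2.03% of all genes. The CArG box was found in Dusp5 and Egr2, against 1.81% of all genes. The EGR motif GCGNGGGCG was found in 10 of the 28, against 6.27%, and the E-box CACGTG in 8, against 8.09%. The AP-1 motif TGANTCA was found in 0 of the 28, against 8.97% of all genes. The marked motifs were not confined to members that moved with the list. Maff, whose correlation with the other members was -0.29, held the full element, and Atf3 (-0.16) and Per1 (-0.06) held TGACG. Gadd45b (0.85) held neither of these nor a CArG box. Whether the motifs go with the movement of the members was not tested. A match describes these letters only.

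The members varied between arrays of 1 group far more than most genes did. The pooled standard deviation within the 4 groups exceeded the 95th percentile of all probe sets (0.24 log2 units) in 17 of 38 members, or 44.7%, compared with 3.66% of all genes. It was above the median of all probe sets (0.118) in 34 members. The widest were Fos (0.91), Egr2 (0.86), Arc (0.77), Npas4 (0.67), Nr4a1 (0.63) and Dusp1 (0.61). At the other end, Homer1 varied by 0.08, Trib1 by 0.09, and Jund and Rgs2 by 0.10 each.

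Fos, the founding member of the AP-1 family, read 9.72, 8.95 and 7.73 in APLP2-KO cortex 1, 2 and 3, and 9.23, 7.93 and 7.90 in APPsα-DM cortex. In hippocampus it read 9.54, 7.98 and 6.96 in APLP2-KO and 7.09, 6.74 and 6.92 in APPsα-DM. The genotypes overlapped in both tissues, and the spread was carried by single arrays: APLP2-KO 1 was the highest in each tissue, and the 3 APPsα-DM hippocampus arrays were all low. Over the 12 arrays the Fos signal spanned 7.90-fold.

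Arc, whose protein removes AMPA receptors from synapses, read 10.72, 9.64 and 8.40 in cortex of APLP2-KO and 8.88, 7.67 and 7.85 in cortex of APPsα-DM. Its hippocampal values were 9.71, 8.34 and 8.40 in APLP2-KO and 8.0, 7.89 and 7.85 in APPsα-DM. Again APLP2-KO 1 was the highest array of both tissues. The hippocampal genotypes did not overlap, while APLP2-KO cortex 3 lay within the range of APPsα-DM cortex.

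Egr2, a zinc finger transcription factor, spanned 15-fold, more than any other member. It read 7.46, 6.54 and 5.26 in cortex of APLP2-KO, 6.29, 5.12 and 5.82 in cortex of APPsα-DM, 6.41, 4.82 and 4.28 in APLP2-KO hippocampus, and 4.27, 3.55 and 4.15 in APPsα-DM hippocampus. In hippocampus the lowest APLP2-KO array and the highest APPsα-DM array were next to each other without overlap.

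Npas4, a transcription factor induced by calcium entry in neurons, stood out on a pair of arrays only. APLP2-KO cortex 1 read 7.74 and the other 5 cortex arrays 5.60 to 6.02, and APLP2-KO hippocampus 1 read 6.82 and the other 5 hippocampus arrays 4.96 to 5.40. Nr4a1, an orphan nuclear receptor, read 10.82, 10.39 and 9.14 in cortex of APLP2-KO, 10.22, 8.99 and 9.08 in cortex of APPsα-DM, 10.40, 9.51 and 9.31 in APLP2-KO hippocampus, and 9.34, 9.03 and 9.12 in APPsα-DM hippocampus. Both genes were highest on the same arrays, but Nr4a1 was also high on APLP2-KO cortex 2 and APPsα-DM cortex 1.

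Dusp1, a phosphatase that switches off MAP kinases, read 9.99, 9.41 and 8.65 in cortex of APLP2-KO and 9.14, 8.05 and 8.42 in cortex of APPsα-DM. It read 9.42, 8.15 and 7.81 in APLP2-KO hippocampus and 8.06, 7.80 and 7.98 in APPsα-DM hippocampus. Junb, an AP-1 subunit, went from 6.37 in APPsα-DM cortex 2 to 7.83 in APLP2-KO cortex 1, and from 6.67 in APPsα-DM hippocampus 2 to 7.52 in APLP2-KO hippocampus 1. The order of the arrays was thus much alike in genes of different function.

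Nr4a2 was the exception among the 8 widest members. This nuclear receptor, known for its part in dopamine neurons, read 8.76, 8.22 and 7.89 in cortex of APLP2-KO and 8.16, 9.06 and 8.67 in cortex of APPsα-DM, so that APPsα-DM cortex 2, the lowest cortex array for Arc, Egr2, Nr4a1, Dusp1 and Junb, was the highest for Nr4a2. In hippocampus it read 10.03, 9.90 and 9.13 in APLP2-KO and 9.69, 9.60 and 9.83 in APPsα-DM. Its 2 next brightest probe sets followed the same order (correlations of 0.97 and 0.92 with the brightest, as deviations from group means over 12 arrays).

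**Figure D1:**
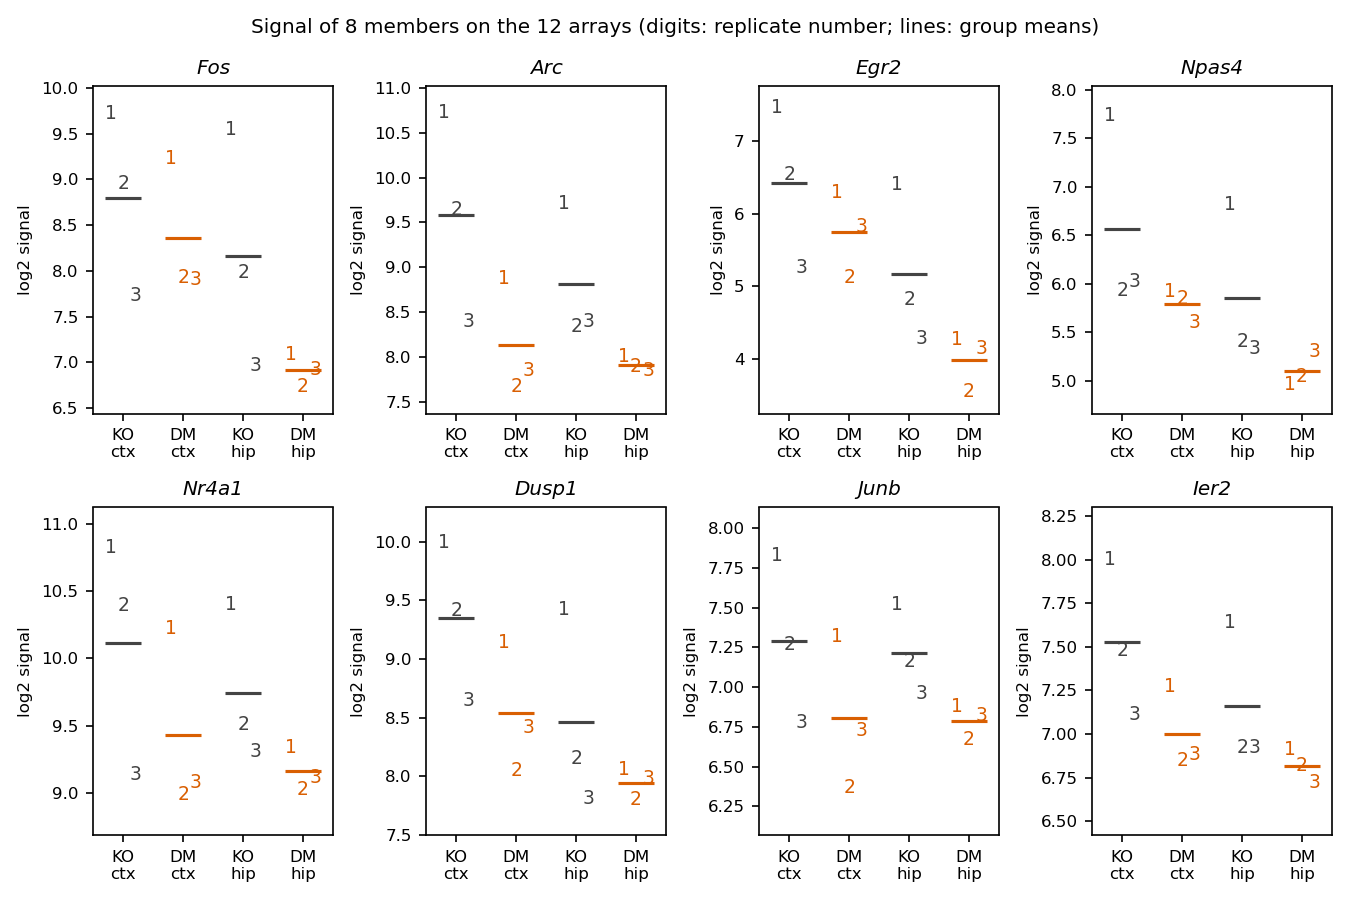
Log2 signal (vertical axes, which do not start at 0) of 8 members on the 12 arrays, in 4 groups along the horizontal axes (KO, APLP2-KO; DM, APPsα-DM; ctx, prefrontal cortex; hip, hippocampus). Each digit is 1 array and gives its replicate number, and lines are group means; the array numbered 1 is the highest of the APLP2-KO group for each of the 8 genes in both tissues.

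Fos, Egr2, Arc, Npas4, Nr4a1 and Dusp1, which varied most, also varied together. For each member, the deviations of its 12 values from the 4 group means were set against the deviations of the mean of all other members. The correlation was at least 0.80 in 11 members, compared with 0.995% of all genes set against the score of all members. These 11 were Arc and Ier2 (0.98 each), Egr2 and Dusp1 (0.95), Fos and Nr4a1 (0.93), Junb (0.91), Gadd45b and Dusp5 (0.85), Btg2 (0.83) and Npas4 (0.82). They include transcription factors (Egr2, Fos, Nr4a1, Junb, Npas4), a synaptic protein (Arc), phosphatases (Dusp1, Dusp5) and growth arrest genes (Btg2, Gadd45b). Another 8 members lay between 0.60 and 0.80, 15 between 0 and 0.60, and 4 below 0: Atf3 (-0.16), Maff (-0.29), Per1 (-0.06) and Per2 (-0.51). Besides Per1 and Per2, other members above the 95th percentile of spread were low too, with Nr4a2 at 0.43, Nptx2 at 0.23 and Inhba at 0.09. The 12 arrays share 4 groups and, by the design text as read here, 6 mice, so these correlations describe this set of arrays.

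Array 1 of APLP2-KO was at the high end in both tissues. APLP2-KO cortex 1 had the highest value of the 6 cortex arrays in 22 of 38 members (20.8% of all genes), and APLP2-KO hippocampus 1 in 21 of 38 hippocampal comparisons (16.8% of all genes). In 19 members, array 1 was the highest of its APLP2-KO group in both tissues, compared with 17.5% of all genes. At the low end the number was the same in both tissues for APPsα-DM 2, but not for APLP2-KO 3 or APPsα-DM 3. APPsα-DM cortex 2 was the lowest cortex array in 17 members (18.2% of all genes) and APLP2-KO cortex 3 in 13 (12.7%), while APLP2-KO hippocampus 3 was the lowest in 5. APPsα-DM hippocampus 2 and 3 were the lowest hippocampal arrays in 14 and 11 members (14.4% and 15.3% of all genes), and APPsα-DM cortex 3 in 5. Whether arrays of 1 number come from 1 mouse is not stated in the labels. Over the 38 members, deviations of same-numbered cortex and hippocampus arrays correlated at 0.83, 0.27 and 0.76 in APLP2-KO and at 0.58, 0.54 and 0.12 in APPsα-DM. Over all probe sets the same correlations were 0.109 to 0.155 and 0.019 to 0.079.

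**Figure D2:**
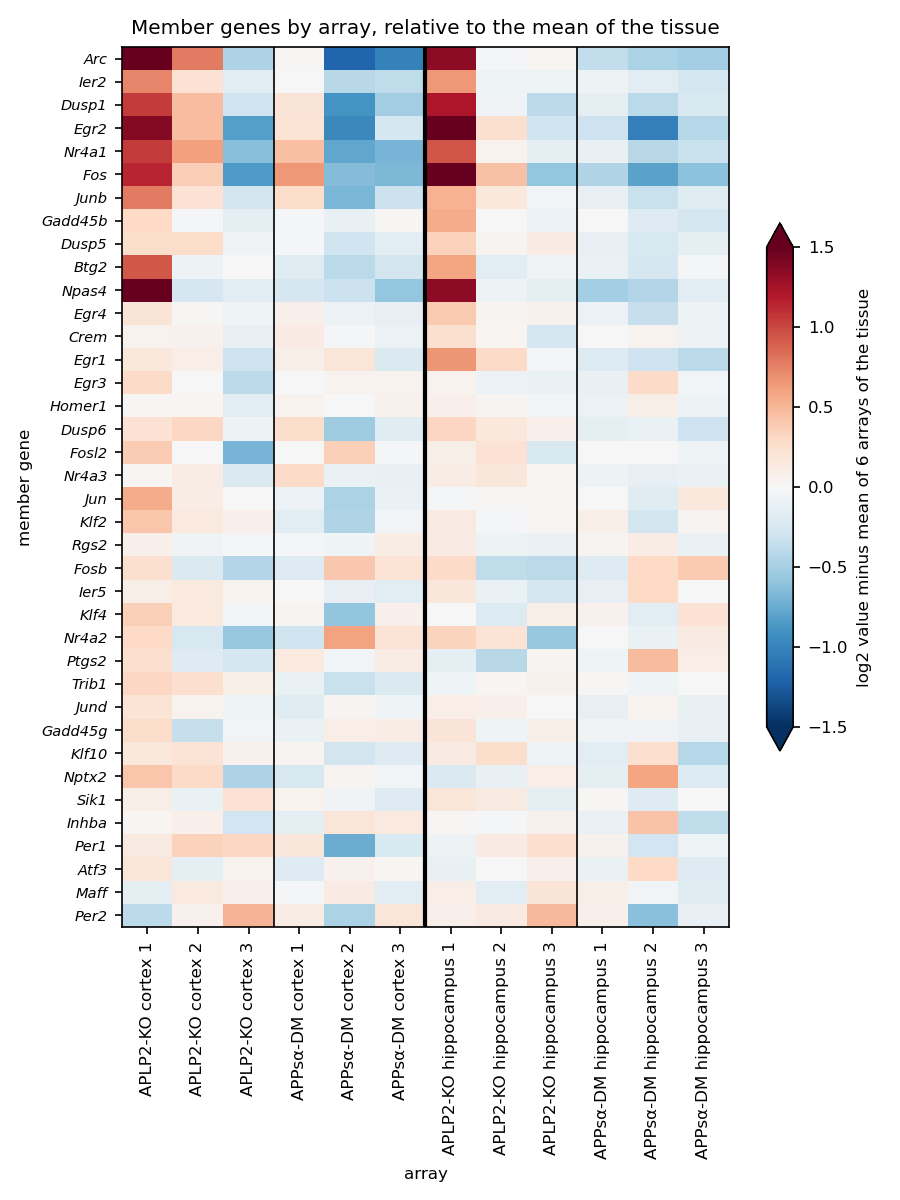
Log2 value of each of the 38 members (rows, ordered by correlation with the other members) on the 12 arrays (columns), minus the mean of the 6 arrays of the same tissue; red is higher and blue lower, with colours saturating beyond the scale. The columns APLP2-KO cortex 1 and APLP2-KO hippocampus 1 are red over most of the upper rows, from Arc to Npas4, and the rows of Per1 and Per2 at the bottom do not follow them.

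A score of the whole list, the mean of the 38 centred log2 values, was 0.49, 0.19 and -0.10 in cortex of APLP2-KO and 0.10, -0.16 and -0.08 in cortex of APPsα-DM. In hippocampus it was 0.31, -0.05 and -0.13 in APLP2-KO and -0.17, -0.19 and -0.21 in APPsα-DM. Group means were 0.19 ± 0.30, -0.05 ± 0.13, 0.04 ± 0.23 and -0.19 ± 0.02 in that order (SD, n = 3). The APLP2-KO groups had the wider spread, and the 3 APPsα-DM hippocampus arrays lay closest together and below the other 3.

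Signal of choroid plexus moved with the score in the opposite direction. The mean of 13 choroid plexus markers measured (of 15 listed) ran from -1.44 to 0.71 in APLP2-KO cortex, -1.35 to 1.17 in APPsα-DM cortex, -0.77 to 1.08 in APLP2-KO hippocampus and -0.58 to 2.15 in APPsα-DM hippocampus. Its deviations correlated with those of the member score at -0.63 over the 12 arrays. The cortex arrays high in Ttr, APLP2-KO 3 and APPsα-DM 2, had the lowest score of their own groups. Markers of cortical projection neurons correlated at 0.70 and those of hippocampal neurons at -0.64. The part of these marker differences in the results on the members was not tested beyond the values given beside them. In bulk tissue fewer cells of a type and less RNA per cell cannot be told apart.

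Other lists of the same biology followed in part. Of 30 other immediate early genes 28 were measured, and their mean correlated with the member score at 0.65. That value is not particular to such genes. Markers of astrocytes and of microglia correlated at 0.57 each, of oligodendrocytes at 0.52, of striatal neurons at 0.51 and of endothelial cells at 0.43. General markers of neurons correlated at 0.13. Delayed genes, which follow the immediate early wave by hours and include Vgf, Penk and Pim1, correlated at -0.02 (28 of 28 measured). Kinases and transcription factors upstream of immediate early genes correlated at 0.18 (31 of 37 measured). Heat shock and unfolded protein genes correlated at 0.83 although their mean spanned only -0.07 to 0.10, glucocorticoid-responsive genes at -0.46, and circadian clock genes at -0.07.

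Per1 and Per2, which encode repressors of the circadian clock and also respond to activity, correlated below 0 with the other members and were set against 17 clock genes. Per2 read 6.84, 7.29 and 7.74 in cortex of APLP2-KO, 7.34, 6.75 and 7.41 in cortex of APPsα-DM, 7.38, 7.44 and 7.79 in APLP2-KO hippocampus, and 7.38, 6.68 and 7.18 in APPsα-DM hippocampus. APLP2-KO 3 was the highest array and APPsα-DM 2 the lowest in both tissues. Per1 and Per2 correlated at 0.73. Of the 17 clock genes 3 reached 0.80 with Per2: Ciart (0.94), Dbp (0.91) and Nr1d2 (0.84), which are all outputs or repressors of the clock. The other clock genes ranged from 0.69 (Tef) to -0.74 (Arntl, which peaks in antiphase to Per2), with Hlf at 0.19, Clock at 0.13, Csnk1e at -0.16, Cry1 at -0.32 and Rora at -0.50. With Per1 the clock genes ranged from 0.80 (Nr1d2) to -0.65 (Cry1). The dimmer probe sets of Per2, with means of 5.64 and 5.54, correlated with its brightest at -0.04 and 0.71, so that these values rest on the brightest one. Dbp read 11.39 on APLP2-KO cortex 3 and 10.51 on APPsα-DM cortex 2, against 10.81 to 11.11 on the other cortex arrays. In hippocampus Dbp read 10.80 on APLP2-KO 3 and 9.81 on APPsα-DM 2, against 10.35 to 10.72 on the others. Within the 3 APPsα-DM arrays of a tissue, number 2 was the lowest in both tissues for 6 of the 17 clock genes measured. The same held for 10.1% of all genes and 12 of the 38 members. Within the 3 APLP2-KO arrays of a tissue, number 3 was the highest in both tissues for 4 of the 17, compared with 12.9% of all genes.

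The 6 probe sets of Homer1 differed in spread. Homer1 encodes a scaffold protein of excitatory synapses, and its locus is known to give a short activity-induced form beside the long constitutive ones. The brightest probe set read 11.26 to 11.50 in cortex and 10.68 to 10.85 in hippocampus, with a pooled SD of 0.08. Probe sets 2, 4, 5 and 6 in order of brightness had pooled SDs of 0.08, 0.13, 0.20 and 0.27. Probe set 3 had a pooled SD of 0.57. It read 10.70, 9.82 and 8.83 in cortex of APLP2-KO, 9.62, 10.29 and 9.70 in cortex of APPsα-DM, 8.69, 8.66 and 7.92 in APLP2-KO hippocampus, and 8.38, 8.08 and 7.73 in APPsα-DM hippocampus. Its highest array was APLP2-KO 1 in both tissues, and its deviations correlated with the member score at 0.68. Which transcript form each probe set reads was not analysed here.

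**Figure D3:**
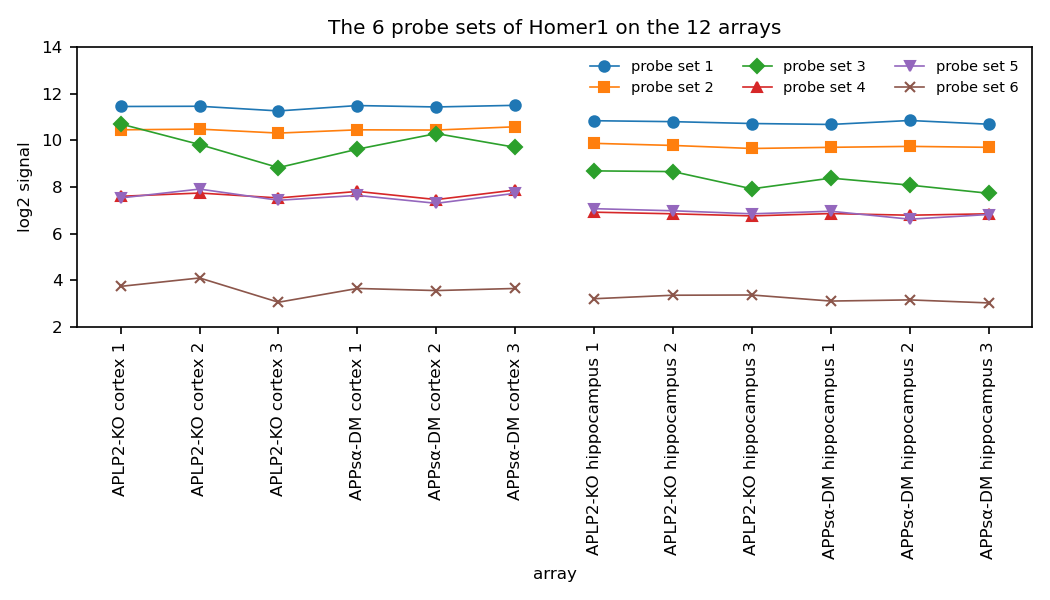
Log2 signal (vertical axis, not starting at 0) of the 6 probe sets assigned to Homer1 alone, numbered by brightness, on the 12 arrays (horizontal axis); lines join arrays of 1 tissue only to guide the eye. Probe set 3 ranges from 8.83 to 10.70 in cortex while probe set 1 stays between 11.26 and 11.50.

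Further probe sets repeated the pattern of the brightest in some members and not in others. The next brightest probe sets of Egr2, Klf4, Gadd45b, Btg2 and Jun correlated with the brightest at 0.96, 0.94, 0.92, 0.90 and 0.89 as deviations over the 12 arrays. Those of Egr3 (-0.54), Trib1 (-0.33), Inhba (-0.19), Sik1 (-0.18), Jund (-0.10), Per2 (-0.04) and Nr4a3 (0.08) did not follow it. The ones of Trib1 and Inhba were dim, with means of 3.28 and 3.86. Values of Trib1 and Inhba therefore rest on 1 probe set each.

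Setting APPsα-DM against APLP2-KO asks what the loss of membrane-bound APP changes when APLP2 is missing as well. In prefrontal cortex none of the 38 members passed the threshold. Most values lay lower in APPsα-DM, with Arc at -1.45 ± 0.51 (SE) on the log2 scale, Dusp1 at -0.81 ± 0.41 and Npas4 at -0.78 ± 0.45, but the spread between arrays was as wide as described above. The count called was 0 of 38 at an adjusted p under 0.05 (limma, Benjamini-Hochberg over 45037 probe sets), and 0.011% of all genes were called. At an unadjusted p under 0.05 there were 8 members, compared with 4.57% of all genes. Of the 38 members 26 lay below 0, with a median of -0.15, compared with 49.4% and 0.00 of all genes. Several lists of cell markers lay mostly on 1 side of 0 here. Of 12 markers of cortical projection neurons 11 lay below 0 (median -0.11, 2 of the 12 at an unadjusted p under 0.05). Markers of oligodendrocytes lay below 0 in 10 of 10 cases (median -0.06, 0 at an unadjusted p under 0.05). In the other direction, 12 of 12 striatal markers lay above 0 (median 0.23, 2 at an unadjusted p under 0.05). Their mean level was 0.77 to 1.13 in APLP2-KO and 0.93 to 1.46 in APPsα-DM. Of 13 endothelial markers 12 lay above 0 (median 0.14, 3 at an unadjusted p under 0.05), with a mean level of -0.10 to 0.16 and 0.08 to 0.29. The part of these markers in the differences of the members was not tested.

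Among the 8 members with the smallest p in cortex were Arc, with the largest difference, and genes with small differences and narrow errors. Trib1, a pseudokinase that promotes protein turnover, read 7.33, 7.28 and 7.11 in APLP2-KO and 6.93, 6.69 and 6.81 in APPsα-DM. The arrays did not overlap, and the difference was -0.43 ± 0.08 (adjusted p = 0.620, limma). With the mean of both Trib1 probe sets it was -0.16.

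Klf2, a transcription factor also abundant in endothelium, read 7.85, 7.58 and 7.50 against 7.27, 6.98 and 7.39, a difference of -0.43 ± 0.13. Jun, the main partner of Fos in AP-1, read 9.11, 8.66 and 8.54 against 8.46, 8.08 and 8.45, a difference of -0.44 ± 0.14. Neither overlapped between genotypes, and the adjusted p from limma was 1 for both. Without APLP2-KO cortex 1, Jun differed by -0.27.

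Dusp5, a phosphatase specific for nuclear ERK, read 7.47, 7.48 and 7.15 in cortex of APLP2-KO and 7.19, 6.91 and 7.05 in cortex of APPsα-DM, with APPsα-DM cortex 1 just above APLP2-KO cortex 3, and a difference of -0.31 ± 0.11. Per1 read 8.51, 8.72 and 8.69 against 8.55, 7.63 and 8.15, a difference of -0.53 ± 0.18 that was -0.29 without APPsα-DM cortex 2. Arc differed by -1.45 (95% interval -2.57 to -0.34), and by -0.89 without APLP2-KO cortex 1.

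Btg2, an antiproliferative regulator of mRNA decay, read 8.19, 7.18 and 7.27 against 7.08, 6.85 and 6.99. Its difference of -0.57 ± 0.24 was -0.25 without APLP2-KO cortex 1. Ier2, a nuclear protein induced by growth factors, read 8.0, 7.48 and 7.11 against 7.27, 6.85 and 6.88, and its difference of -0.53 ± 0.22 was -0.30 without that array. For Dusp5, Per1, Arc, Btg2 and Ier2 the adjusted p from limma was 1. The members without overlap in cortex were Btg2, Ier5, Jun, Klf2, Klf10, Npas4 and Trib1, all 7 lower in APPsα-DM, and 0 were higher, compared with 5.56% and 4.25% of all genes.

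In hippocampus, too, 0 of 38 members were called (0.011% of all genes were). Here 29 of 38 lay below 0, with a median of -0.13, compared with 45.7% and 0.01 of all genes. Endothelial markers lay above 0 in 13 of 13 cases (median 0.28, 8 at an unadjusted p under 0.05, 8 without overlap and higher in APPsα-DM, 0 called), with a mean level of -0.28 to -0.20 in APLP2-KO and -0.06 to 0.16 in APPsα-DM. Choroid plexus markers also lay above 0 in 13 of 13 (median 1.10, 0 at an unadjusted p under 0.05), with a mean level of -0.77 to 1.08 and -0.58 to 2.15. With the choroid plexus score as a covariate the median of the members was -0.13, and the part of endothelial signal was not tested. At an unadjusted p under 0.05 there were 4 members, compared with 4.02% of all genes. The members without overlap were Arc, Dusp5, Dusp6, Egr1, Egr2, Egr4, Ier2, Junb, Npas4 and Nr4a3, all 10 lower in APPsα-DM, and 0 were higher, compared with 5.34% and 5.13% of all genes.

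Egr1, a zinc finger factor with steady expression in adult forebrain neurons, had the smallest p of the members in hippocampus. It read 11.63, 11.26 and 10.95 in APLP2-KO and 10.76, 10.66 and 10.56 in APPsα-DM. All 3 APPsα-DM arrays lay below all 3 APLP2-KO arrays, and the difference was -0.62 ± 0.17 (1.54-fold, 95% interval -0.99 to -0.26, adjusted p = 1, limma). It was -0.45 without APLP2-KO hippocampus 1.

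Dusp5 read 7.99, 7.68 and 7.77 in APLP2-KO hippocampus and 7.52, 7.40 and 7.49 in APPsα-DM hippocampus, a difference of -0.35 ± 0.11. Egr4 read 7.90, 7.54 and 7.57 against 7.42, 7.16 and 7.43, a difference of -0.34 ± 0.11 that was -0.22 without APLP2-KO hippocampus 1. Dusp6, which acts on cytoplasmic ERK, read 8.88, 8.71 and 8.63 against 8.41, 8.45 and 8.25, a difference of -0.37 ± 0.17 that was -0.23 with the choroid plexus score as a covariate. None of the 3 genes overlapped between genotypes, and each had an adjusted p of 1 (limma).

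Larger differences with wider errors were seen in Fos (-1.24 ± 0.60) and Egr2 (-1.18 ± 0.57). Without APLP2-KO hippocampus 1 they were -0.55 and -0.56. Gadd45b, a gene of DNA repair and demethylation, read 8.32, 7.75 and 7.67 against 7.76, 7.57 and 7.50, a difference of -0.30 ± 0.16 that was -0.10 without the same array and -0.18 with the mean of its probe sets. Ptgs2, the inducible cyclooxygenase, went the other way: 8.03, 7.74 and 8.20 against 8.10, 8.64 and 8.26, a difference of 0.34 ± 0.16 with overlapping arrays. Without APPsα-DM hippocampus 2 it was 0.18, and without APLP2-KO hippocampus 2 it was 0.22. Fosb, a relative of Fos with stable truncated forms, was at 0.33 ± 0.23 in hippocampus and at 0.27 ± 0.23 in cortex. The adjusted p from limma was 1 for these 5 genes of the hippocampus.

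**Figure D4:**
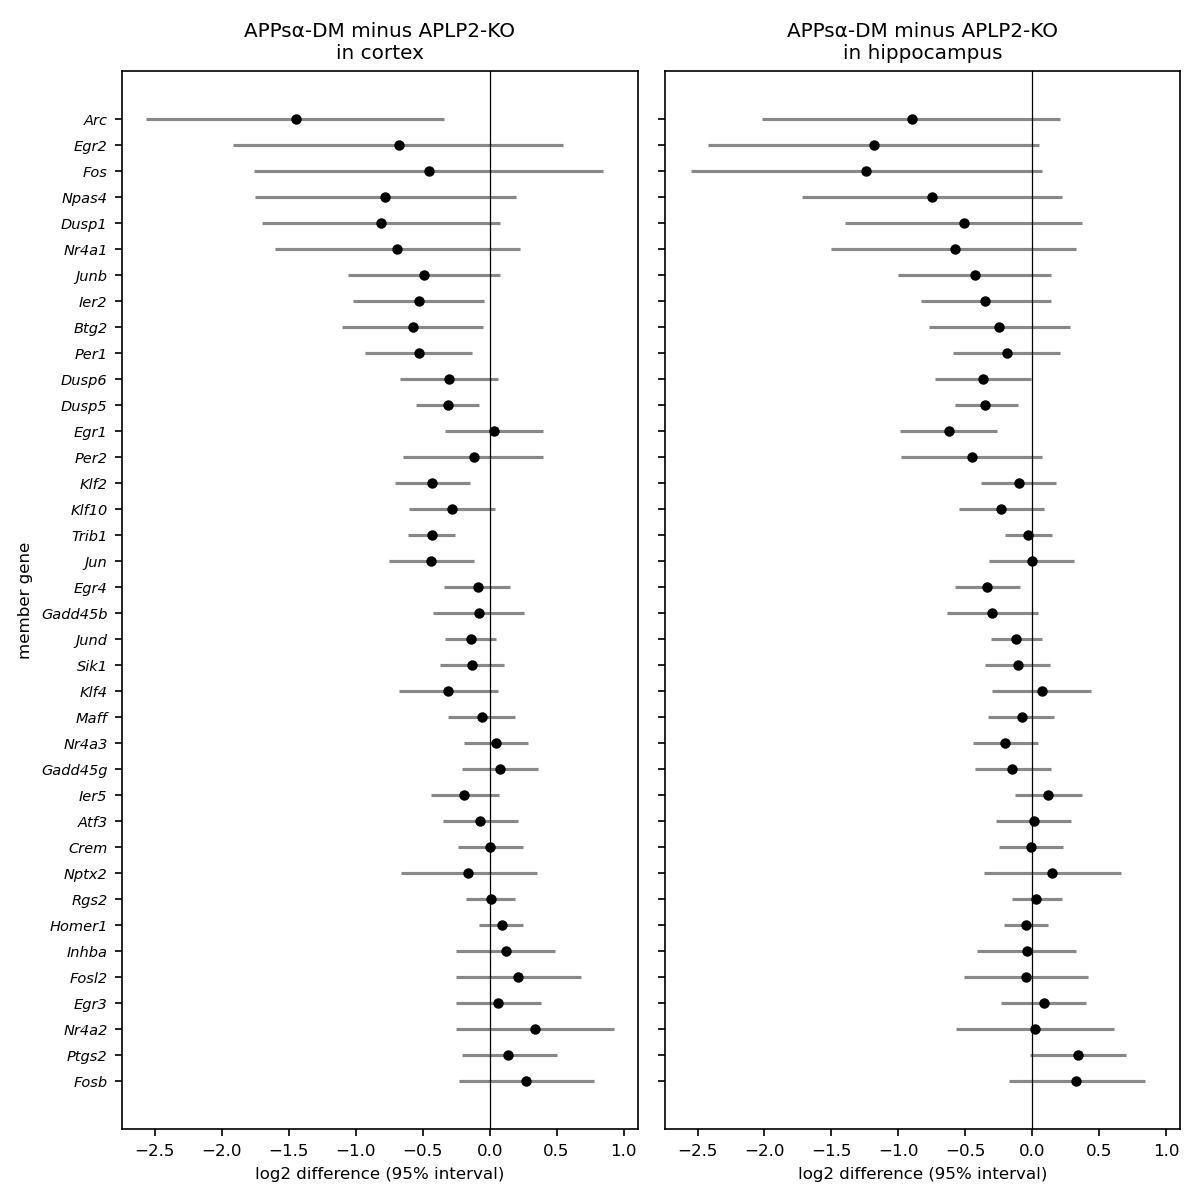
Difference in log2 signal, APPsα-DM minus APLP2-KO, of the 38 members in cortex (left) and hippocampus (right), as points with 95% intervals from limma, ordered by the mean of both tissues. Most points lie left of 0 (26 in cortex and 29 in hippocampus), the widest intervals belong to Arc, Egr2, Fos and Npas4, and 0 members passed the threshold.

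These counts were repeated without single arrays. With both arrays numbered 1 of APLP2-KO left out, 22 of 38 members lay below 0 in cortex (48.7% of all genes) and 29 in hippocampus (45.9%), with medians of -0.13 and -0.06. In that setting 8 members were lower and 2 higher without overlap in cortex (9.65% and 9.88% of all genes), and 13 were lower and 1 higher in hippocampus (11.4% and 11.8%). With APLP2-KO cortex 3 and APPsα-DM cortex 2, the arrays high in Ttr, left out, 32 of 38 members lay below 0 in cortex (51.5% of all genes), with a median of -0.20. There Arc differed by -1.82, and Per1 by -0.27.

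By function, regulators of transcription outside the AP-1, EGR and NR4A families (Npas4, Klf2, Klf4, Klf10, Crem, Per1, Per2, Ier2 and Ier5) had a median of -0.31 in cortex and -0.19 in hippocampus. The 8 feedback and growth arrest genes (Dusp1, Dusp5, Dusp6, Sik1, Trib1, Btg2, Gadd45b and Gadd45g) had medians of -0.30 and -0.28, with 7 and 8 of 8 below 0. The 8 AP-1 and related factors had medians of -0.11 and -0.06, and the 6 synaptic and secreted effectors, among them Arc, Homer1 and the pentraxin Nptx2, 0.05 and -0.01. EGR factors had -0.03 in cortex and -0.48 in hippocampus, and NR4A receptors 0.05 and -0.20.

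Averaged over the tissues (mean of the cortex and hippocampus array of each number, 3 against 3), 0 of 38 members were called (0.011% of all genes). Of the 38 members 30 lay below 0 and the median was -0.20, compared with 48% and 0 of all genes. There were 10 at an unadjusted p under 0.05, compared with 4.20% of all genes. Dusp5 had the smallest p (-0.33 ± 0.08), followed by Trib1 (-0.23 ± 0.06), Dusp6 (-0.34 ± 0.11) and Arc (-1.18 ± 0.41). Klf10 was at -0.25 ± 0.09, Klf2 at -0.26 ± 0.11 and Per1 at -0.36 ± 0.15, and only Ptgs2 of the first 8 was positive (0.24 ± 0.10). Without APLP2-KO 1 the mean effect of Arc was -0.67 and the median of the members -0.11. Without APPsα-DM 2 it was -0.19 for Per1 and -0.15 for Klf2, without APPsα-DM 3 it was -0.16 for Klf10, and without APLP2-KO 2 it was 0.15 for Ptgs2. The adjusted p from limma was 1 for each.

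The genotype effects in the tissues did not differ detectably: 0 of 38 members were called (0% of all genes), and 2 had an unadjusted p under 0.05 (3.41% of all genes). These were Trib1, with an effect higher in hippocampus by 0.40 ± 0.11, and Egr1, with one lower by -0.66 ± 0.24. Egr1 read 12.35, 12.30 and 11.89 in cortex of APLP2-KO and 12.28, 12.38 and 11.98 in cortex of APPsα-DM, so that the cortical arrays overlapped. Trib1 read 6.47, 6.56 and 6.60 in APLP2-KO hippocampus and 6.55, 6.47 and 6.53 in APPsα-DM hippocampus. With the mean of its probe sets Trib1 was at 0.17, and without the cortex arrays of high Ttr signal Egr1 was at -0.43. Next were Jun at 0.43 ± 0.20 (0.26 without APLP2-KO cortex 1), Ier5 at 0.31 ± 0.17 (0.19 without APPsα-DM hippocampus 2) and Klf2 at 0.33 ± 0.18 (0.21 without APPsα-DM cortex 2), each with an adjusted p of 1 from limma.

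Of the 28 other immediate early genes, 0 were called in either tissue. In cortex 20 lay below 0 and in hippocampus 20, with medians of -0.05 and -0.03, compared with 49.4% and 45.7% of all genes below 0. Rasd1, a small G protein induced by glucocorticoids and activity, read 6.36, 6.30 and 6.63 in cortex of APLP2-KO and 6.03, 6.06 and 6.17 in cortex of APPsα-DM. In hippocampus it read 8.17, 8.10 and 8.20 against 7.91, 7.77 and 7.78. The arrays did not overlap in either tissue, and the differences were -0.34 ± 0.09 and -0.33 ± 0.09 (adjusted p = 1 for both, limma).

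For the lists that follow, 49.4% of all genes lay below 0 in cortex and 45.7% in hippocampus. Among the 28 delayed genes, 10 lay below 0 in each tissue with medians of 0.03, and 0 were called. Nptx1 was at -0.30 ± 0.09 in cortex and the opioid precursor Penk at 0.46 ± 0.19 in hippocampus. Of the 31 upstream genes, 21 lay below 0 in cortex and 11 in hippocampus, with medians of -0.02 and 0.04, and 0 were called. Of the 17 clock genes, 10 and 9 lay below 0, with medians of -0.04 in both tissues, and 0 were called. Glucocorticoid-responsive genes had medians of -0.03 in both (13 and 12 of 20 below 0), and heat shock genes 0.01 and 0.02 (7 of 16 below 0 in each), with 0 called.

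Members differed between the tissues in both genotypes. With 3 mice of a genotype, as the design text gives, both tissues would come from the same mice, but which arrays match is not stated. Between hippocampus and cortex, without pairing the arrays, 16 of 38 members passed the threshold in APLP2-KO, 6 higher and 10 lower in hippocampus. With the replicate number as a block, in a fit of the 6 arrays of that genotype, 22 passed, when 12.9% of all genes did. Without the block 16.5% of all genes passed (6.78% higher and 9.70% lower). In APPsα-DM 14 of 38 passed, 5 higher and 9 lower, when 13.9% of all genes did (6.59% and 7.34%). With the block on the 6 APPsα-DM arrays 19 passed, when 9.95% of all genes did. The arrays of the genotypes are different, but both comparisons used a spread estimated from all arrays together, so the calls are not independent. The share of all genes that passed in both genotypes is not given here. Of the members, 13 passed in both: 13 of the 16 and 13 of the 14, each in the same direction. Higher in hippocampus were Jun, Nr4a2, Nr4a3, Dusp5 and Ptgs2, and lower were Egr1, Ier5, Homer1, Nptx2, Trib1, Crem, Inhba and Rgs2. Among the members, 6 were higher and 11 lower without overlap in APLP2-KO (16.2% and 20.3% of all genes), and 8 were higher and 13 lower in APPsα-DM (15.3% and 17.4%). The tissues have different cell types, and their part in these differences was not tested.

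Jun rose the most in APPsα-DM. It read 9.11, 8.66 and 8.54 in APLP2-KO cortex and 10.31, 10.36 and 10.36 in APLP2-KO hippocampus, a difference of 1.57 ± 0.14 or 2.97-fold (adjusted p = 1.42e-05, limma). In APPsα-DM it read 8.46, 8.08 and 8.45 in cortex and 10.34, 10.16 and 10.50 in hippocampus, a difference of 2.0 ± 0.14 or 4.01-fold (adjusted p = 2.28e-06, limma). The hippocampal values lay close together in both genotypes, and most of the spread of Jun was in cortex.

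Nr4a3 and Nr4a2, nuclear receptors of the NR4A family, rose as well. Nr4a3 read 8.88, 8.96 and 8.63 in APLP2-KO cortex against 10.56, 10.61 and 10.46 in hippocampus, and 9.13, 8.75 and 8.74 against 10.37, 10.32 and 10.35 in APPsα-DM. The differences were 1.72 ± 0.11 and 1.47 ± 0.11 (adjusted p = 8.23e-07 and 3.30e-06, limma). Its dimmer probe sets, with means of 6.93 and 3.51, did not show the difference, and with the mean of all its probe sets Nr4a3 differed by 0.53 and 0.46. Nr4a2, with the values given above, rose in hippocampus by 1.40 ± 0.27 and 1.08 ± 0.27 (adjusted p = 0.00398 and 0.0220, limma), and by 0.87 and 0.70 with the mean of its probe sets. Nr4a1, of the same family, read 9.31 to 10.40 in APLP2-KO hippocampus against 9.14 to 10.82 in cortex, and did not pass.

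Ptgs2 read 7.11, 6.66 and 6.59 in cortex of APLP2-KO and 7.0, 6.82 and 6.97 in cortex of APPsα-DM, against 7.74 to 8.20 and 8.10 to 8.64 in hippocampus. It rose by 1.21 ± 0.16 and 1.40 ± 0.16 (adjusted p = 0.000311 and 0.000114, limma). Dusp5 rose by 0.45 ± 0.11 and 0.42 ± 0.11. Fosl2, an AP-1 subunit, was higher by 0.92 ± 0.21 in APLP2-KO (adjusted p = 0.0130, limma) and by 0.66 ± 0.21 in APPsα-DM (adjusted p = 0.0757), and by 0.51 and 0.40 with the mean of its probe sets.

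Among the members that passed and were lower in hippocampus, Egr1 fell the most in APPsα-DM, by 1.55 ± 0.17 (2.93-fold, adjusted p = 6.24e-05, limma), and in APLP2-KO it fell by 0.90 ± 0.17 (adjusted p = 0.00327). Its 6 cortex values, 11.89 to 12.38, lay above all hippocampus values. Nptx2, a secreted pentraxin that clusters AMPA receptors, read 8.71, 8.59 and 7.83 in APLP2-KO cortex against 7.13, 7.24 and 7.45 in hippocampus, and 8.06, 8.34 and 8.26 against 7.20, 7.94 and 7.14 in APPsα-DM. The differences were -1.10 ± 0.23 and -0.80 ± 0.23 (adjusted p = 0.00697 and 0.0472, limma). APPsα-DM hippocampus 2 lay close to the cortex range.

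Homer1 fell by 0.60 ± 0.08 and 0.74 ± 0.08, and Ier5, a regulator of heat shock factor and cell cycle genes, by 0.94 ± 0.12 and 0.63 ± 0.12. Inhba, a subunit of activin, fell by 0.60 ± 0.17 and 0.77 ± 0.17, and Rgs2, which shortens G protein signals, by 0.49 ± 0.09 and 0.46 ± 0.09. Crem, a cAMP-responsive factor, fell by 0.39 ± 0.11 and 0.41 ± 0.11, and Trib1 by 0.70 ± 0.08 and 0.30 ± 0.08. With the mean of their probe sets the differences were -0.27 and -0.42 for Inhba (adjusted p = 0.0783 in APLP2-KO), -0.22 and -0.23 for Crem, and -0.35 and -0.18 for Trib1 (adjusted p = 0.0619 in APPsα-DM, limma). In each pair the first value is from APLP2-KO, and the adjusted p from limma was 8.80e-05 to 0.0353 in APLP2-KO and 3.82e-05 to 0.0343 in APPsα-DM. Per1 (-0.62 ± 0.18) and Klf10 (-0.49 ± 0.15) passed in APLP2-KO, with -0.28 ± 0.18 and -0.44 ± 0.15 in APPsα-DM, and Egr4 passed in APPsα-DM (-0.44 ± 0.11), with -0.20 ± 0.11 in APLP2-KO. That these differ between the genotypes is not shown, since the difference of the effects passed for 0 members.

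The labels do not state that same-numbered arrays are pairs. In APLP2-KO they met a rule set on these data (every same-numbered correlation over all probe sets above 0.1). Arrays of different genotypes reached 0.249 by the same measure (APLP2-KO cortex 2 and APPsα-DM cortex 1), so the rule cannot show pairing. The block was fitted on the 6 APLP2-KO arrays alone, which without a block gave 14 members (share of all genes not given here). With the replicate number as a block 22 of 38 passed in APLP2-KO, 7 higher and 15 lower in hippocampus, when 12.9% of all genes did. These 22 include all 16 named for APLP2-KO, and the other 6 were Egr2, Fos, Fosb, Npas4, Dusp1 and Gadd45g. Hippocampus minus cortex for Egr2 was -1.04, -1.72 and -0.98 in arrays 1, 2 and 3, a difference of -1.25 ± 0.15 (adjusted p = 0.00438, limma) that was -1.25 ± 0.57 (adjusted p = 0.198) without the block. Npas4 fell by 0.72 ± 0.09 (adjusted p = 0.00627), Dusp1 by 0.89 ± 0.13 (adjusted p = 0.0102), Fosb by 0.55 ± 0.08 (adjusted p = 0.00861) and Fos by 0.64 ± 0.15 (adjusted p = 0.0461), and Gadd45g, a stress-induced growth arrest gene, rose by 0.40 ± 0.09 (adjusted p = 0.0413, limma). These members had the same direction in all 3 same-numbered comparisons, and 5 of the 6 were lower in hippocampus.

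In APPsα-DM, where the numbers do not pair the arrays by the same rule, Egr2 was at -1.75 ± 0.57 without a block (adjusted p = 0.0738, limma). Its arrays did not overlap between the tissues, and its dimmer probe set (mean 5.25) passed, at -2.10 ± 0.54 (adjusted p = 0.0252, limma). In APLP2-KO that probe set was at -1.02 ± 0.54 (adjusted p = 0.278).

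Calls near the threshold depended on single arrays. In APLP2-KO, Egr1, Homer1, Ier5, Jun, Nr4a2, Nr4a3, Ptgs2, Rgs2 and Trib1 passed in all 17 alternative settings, and in APPsα-DM Egr1, Homer1, Ier5, Jun, Nr4a3, Ptgs2 and Rgs2 did. In APLP2-KO the calls of Per1 and Klf10 were lost without any single one of the 6 arrays. Inhba lost its call there without cortex 1 or 2 or any hippocampus array, Crem without cortex 1 or 2 or hippocampus 2 or 3, Dusp5 without cortex 3 or hippocampus 1, and Fosl2 without hippocampus 2. In APPsα-DM, Crem lost its call without cortex 1 or 2 or any hippocampus array, Trib1 without cortex 1 or 3 or any hippocampus array, and Nptx2 without any cortex array or hippocampus 1 or 3. Nr4a2 lost its call there without cortex 1 or 3 or hippocampus 1 or 3, Dusp5 without cortex 2 or 3 or hippocampus 1 or 3, and Egr4 without cortex 1 or 2 or hippocampus 2. The APPsα-DM count was 9 without cortex array 1, hippocampus array 1 or hippocampus array 3 of that genotype, and 8 with choroid plexus signal as a covariate.

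**Figure D5:**
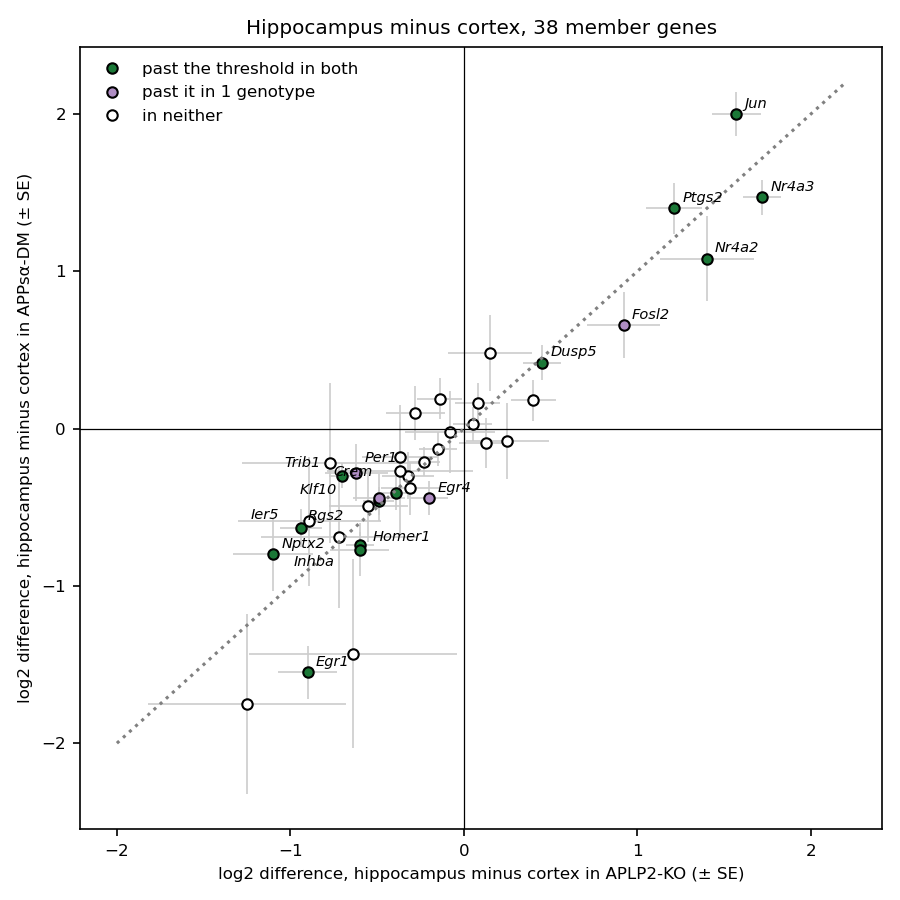
Difference in log2 signal, hippocampus minus cortex, of the 38 members in APLP2-KO (horizontal axis) and APPsα-DM (vertical axis), with standard errors from limma without a block; the dotted line marks equal differences. Green points passed the threshold in both genotypes (13), purple points in 1 (4), and Jun, Nr4a3, Nr4a2 and Ptgs2 lie at the upper right, above 1 on both axes.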

How the data were processed

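Expression was measured on 12 Affymetrix whole-genome mouse arrays. Per the submitters' processing notes, the authors used RMA and the affy package (versions not given in the sources used here); the deposited values are log2 signals after background correction, quantile normalisation and summarising of probes. Of 45101 probe sets 64 controls were left out. The platform annotation gave 34945 probe sets 1 gene, 932 several and 9160 none, and only the first were named; 34741 matched RefSeq genes of GRCm38.p6. Groups were taken from the labels, which do not say more on how independent the samples are than 3 mice per genotype, so p-values measure the spread between these samples.

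In R 4.3.3, limma 3.58.1 fitted the 4 group means over the 12 arrays without a filter on dim signals (8 residual and 4.25 prior degrees of freedom), with contrasts for genotype in each tissue, their difference and tissue in each genotype, two-sided, adjusted by Benjamini-Hochberg over 45037 probe sets at 0.05. The mean genotype effect was fitted on averages of same-numbered arrays. Errors are moderated standard errors unless marked SD; the number of arrays limits the precision, with a median SE of 0.0938 for a genotype difference. On data simulated for the cortical genotype comparison over 45037 probe sets, 97 of 100 changes of 1 log2 unit and 100 of 100 of 2 units were recovered. In the same data 9 unchanged probe sets were called. The changed probe sets were drawn at random from all probe sets, whose median SD within groups was 0.118. These rates therefore do not apply to members as wide as Fos (0.91), Egr2 (0.86) or Arc (0.77).

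The members and lists were chosen with earlier results of these data known. Per-array values are given for the 8 members with the smallest p in each genotype comparison, the 8 widest, the 5 with the smallest p for the difference of effects and those called in both tissue comparisons with at least 1 log2 unit; other genes were those with the smallest p of a list. The clock genes beside Per2 and Homer1 probe set 3 were chosen after their values were seen. Deviations from group means of same-numbered cortex and hippocampus arrays correlated at 0.109, 0.131 and 0.155 in APLP2-KO over all probe sets. By the rule used (every same-numbered pair over 0.1) the numbers were therefore treated as pairs there. In APPsα-DM (0.019 to 0.079) and between genotypes they did not meet it. The rule was applied to these same data and cannot show that arrays share a mouse, since arrays of different genotypes reached 0.249. Alternatives were the 6 arrays compared alone, a replicate block, array weights, the mean of a gene's probe sets, a choroid plexus covariate, leaving out arrays and other scalings of the score.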

Additional observations from a re-analysis of the deposited data

How the results depend on the processing

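The counts of members called by genotype, by the mean effect and by the difference of effects were 0 under all alternatives run. Of 1002 recomputed values of named members, 916 kept their direction and side of the threshold, 78 were no longer past it, 8 newly passed and 0 reversed. For hippocampus minus cortex, leaving out 1 array at a time gave 11 to 15 members called in APLP2-KO (16 with all arrays) and 9 to 12 in APPsα-DM (14 with all arrays), where fewer arrays were fitted. A choroid plexus covariate gave 8 in APPsα-DM and 13 in APLP2-KO. With the replicate number as a block 22 members were called by tissue in APLP2-KO (12.9% of all genes), 19 in APPsα-DM (9.95%) and 0 by genotype. For the other settings of the tissue comparison the share of all genes is not given here, so their counts describe the members only. The block was fitted on the 6 arrays of 1 genotype, and these arrays without a block gave 14 members in APLP2-KO and 18 in APPsα-DM. Against the fit of all 12 arrays, the block fit in APPsα-DM gained Fos, Fosb, Fosl2, Egr2, Npas4 and Btg2 and lost Trib1. Fosl2 was also gained and Trib1 also lost with the 6 arrays and no block. Over all probe sets each APPsα-DM array but hippocampus 2 correlated best with its own number, a hint from the data and not the design. With the pairing of genotype and number as a random block (consensus correlation 0.0744) 17 and 14 were called. The block changed no call of a genotype comparison. Dividing each member by its SD widened the range of the score over the 12 arrays from 0.70 to 1.59, by construction. Leaving out both arrays numbered 1 of APLP2-KO, a setting chosen after seeing the data, moved the hippocampal median of members from -0.13 to -0.06. With 3 arrays per group, members as wide as Fos or Egr2 had standard errors of up to 0.60, and differences smaller than their intervals were not detectable.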

Other observations

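Genes outside the list whose deviations from the group means followed the member score most closely were Cldn23 (0.97), Tiparp (0.96), Xkr8 (0.95), Maf (0.93), Dleu2 (0.92) and Lrrk2 (0.91), over 12 arrays and 3639 probe sets with 1 gene and a pooled SD of at least 0.20. Next came Rita1 (0.90), Smyd1 (0.89), Gk5 (0.88), and, at 0.87, Dusp16, Cd93, Abcd2, Ccn1, Hspa1b and A930006K02Rik. All 15 were also the first 15 with Fos left out of the score. Tiparp, an ADP-ribosyltransferase and itself in the list of other immediate early genes, read 7.81, 7.44 and 7.33 in APLP2-KO cortex and 7.30, 6.99 and 7.12 in APPsα-DM cortex on the probe set that ranked here. In hippocampus it read 7.95, 7.48 and 7.46 against 7.45, 7.34 and 7.38. Its genotypes did not overlap in either tissue, with differences of -0.39 ± 0.15 and -0.24 ± 0.15 (adjusted p = 1, limma). Ccn1, a matrix protein induced by growth factors, read 5.32 on APLP2-KO cortex 1 and 3.90 to 4.17 on the other cortex arrays, and 4.69 on APLP2-KO hippocampus 1 and 3.83 to 4.03 on the other hippocampus arrays. Cldn23 and Smyd1 were dim, at most 4.31 and 3.41.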
